A study of Mus musculus with 8 samples.

Results

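At 1976 of 8889 wild-type E2F3 peaks (22.2%), a HELLS peak was listed in E2f3-null cells but none in wild-type cells, and no H3K27me3 peak was listed in wild type. These regions were chosen by overlap of the authors' peak lists by at least 1 bp. At these regions HELLS reads were 1.31 times as high in E2f3-null as in wild-type cells when summed and scaled (95% interval 1.29 to 1.32). Over all wild-type E2F3 peaks the same ratio was 1.16 (1.157 to 1.172). The choice used HELLS calls in both genotypes, so a ratio above 1 at the regions is part of the selection. Taken region by region, 103 of the 1976 (5.21%) held at least 2 times as many scaled reads in E2f3-null cells with an interval above 1, against 2.38% of all wild-type E2F3 peaks. In wild-type cells, where no HELLS peak was listed, HELLS reads were higher than IgG reads by a median log2 of 0.90, against 0.83 over all wild-type E2F3 peaks. By the same rule they were above IgG at 692 of the regions (35.02%), against 29.5% of all these peaks. Counted in 100 bp at the E2F3 summit they were above IgG at 322 regions (16.3%), against 13.54% of all these peaks.

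The data were chromatin immunoprecipitations followed by sequencing from mouse embryonic fibroblasts taken at E13.5, primary connective-tissue cells grown in culture. The genotypes were E2f3-/-, called E2f3-null here, and wild type, and each gave 1 library with an antibody against E2F3, 1 against HELLS and 1 against H3K27me3. The labels give no treatment, do not describe how the E2f3 allele was made, and do not say how many embryos were pooled. The IgG reads deposited for the 2 genotypes were identical, 7223444 lines, and were used as 1 IgG background with no genotype of its own. The controls named in the headers sum to 7235504 tags, and whether the deposited reads pool both was not tested. The 6 antibody libraries held 3799779 to 5640555 distinct reads and the IgG file 7219419. With 1 library per group there is no replicate and no test across samples, and every interval covers counting error only.

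E2F3 is a transcription factor that, with a DP partner, binds promoters of genes for DNA replication and the cell cycle, and the retinoblastoma protein holds it in check. HELLS, also called LSH, is an ATP-dependent helicase of the SNF2 family that moves nucleosomes and is needed for normal DNA methylation in mouse embryos. H3K27me3 is a histone mark written by Polycomb repressive complex 2 and is found at silent genes. HELLS is itself encoded by a gene that E2F factors are known to regulate.

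The remaining wild-type E2F3 peaks fell into 4 classes. Those with a wild-type H3K27me3 peak numbered 1832. Of the others, 904 had a HELLS peak in both genotypes, 307 had one in wild type alone and 3870 had one in neither. The list for E2f3-null cells held 4740 HELLS peaks, against 2489 in the list for wild-type cells, and 1983 of the E2f3-null HELLS peaks overlapped the 1976 regions. In 48 of the regions the HELLS peak was shared with another region, so these do not count as separate binding events. The regions had a median length of 831.5 bp, with a range of 215 to 2864 bp, against 669 bp over all wild-type E2F3 peaks.

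HELLS reads were few at any 1 region. The median region held 32 HELLS reads in E2f3-null cells, with 23 and 44 at the lower and upper quartile. It held 25 HELLS reads in wild-type cells, with quartiles of 17 and 33. The IgG library, which was more deeply sequenced, gave 19 reads, with quartiles of 13 and 25. The read distributions of E2f3-null and wild-type HELLS therefore overlapped over most of their range, and only 114 of the 1976 regions had fewer than 10 wild-type HELLS reads. No region was without a HELLS read in either genotype. Over all wild-type E2F3 peaks the medians were 19 E2f3-null HELLS, 16 wild-type HELLS and 13 IgG reads. More reads make a call easier at the same ratio, so shares called at the regions and over all peaks are compared at unlike depth.

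**Figure D1:**
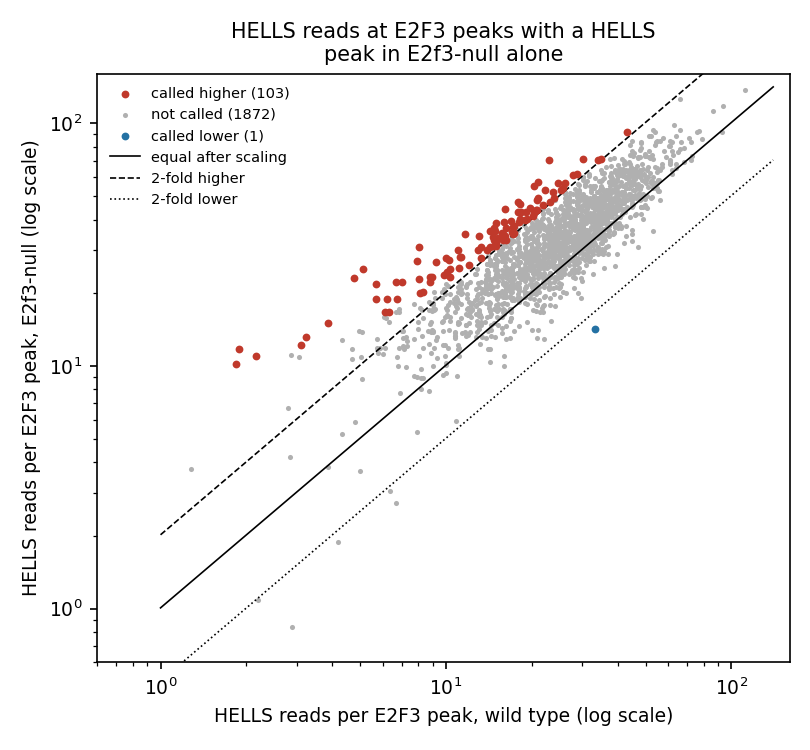
HELLS reads at each of the 1976 E2F3 peaks with a HELLS peak in E2f3-null cells alone, E2f3-null on the vertical axis and wild type on the horizontal axis, both on log scales, with points spread slightly so that equal counts can be seen. The solid line marks equal reads after scaling and the other lines mark 2-fold differences. The 103 regions called higher (red) lie at the upper edge of 1 continuous cloud, and 1 region was called lower (blue).

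The log2 ratio of scaled HELLS reads, E2f3-null over wild type with 0.5 added to each count, had a median of 0.37 and quartiles of 0.15 and 0.62. It was above 0 in 1700 of the 1976 regions (86.0%), against 60.4% of all wild-type E2F3 peaks. A call of higher or lower needed a 2-fold or greater ratio of scaled reads together with a 95% interval, exact and binomial given the total, that left out 1. By that rule 103 regions were higher and 1 was lower, against 2.38% higher and 0.641% lower over all 8889 wild-type E2F3 peaks. With a 1.5-fold threshold 271 regions (13.7%) were higher, against 5.61% of all peaks. With the interval alone 278 (14.1%) were higher and 1 lower, against 5.85% and 0.754% of all peaks. The interval of the ratio included 1 at 1697 regions (85.9%), against 93.4% of all peaks. Since the regions were chosen for a HELLS call in one genotype and not in the other, these counts describe the selection, and nothing is read from their distance to the background shares.

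Depth set what could be called. At a region with 25 wild-type HELLS reads, the median, 43 E2f3-null reads were needed for an interval above 1, a ratio of 1.71, and 51 for a 2-fold call. At 17 wild-type reads the numbers were 32 and 35, and at 33 wild-type reads 53 and 67. A difference of the size of the median ratio, 1.29, was therefore not detectable at a single region of median depth.

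The class with a HELLS peak in wild type alone was chosen by the opposite criterion, and its HELLS ratio lay on the other side of 1. At those 307 peaks the median log2 ratio was -0.32, the summed reads gave a ratio of 0.824 (95% interval 0.795 to 0.853), and 1 region was called higher and 14 lower. At the 904 peaks with HELLS in both genotypes the median log2 ratio was 0.19 and the summed ratio 1.16 (1.15 to 1.18), with 7 called higher and 2 lower. At the 3870 peaks with HELLS in neither list the median was -0.01 and the summed ratio 1.03 (1.01 to 1.04), with 48 higher and 35 lower. Over all wild-type E2F3 peaks the median was 0.17, so the median of the 1976 regions lay 0.20 above it on the log2 scale.

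**Figure D2:**
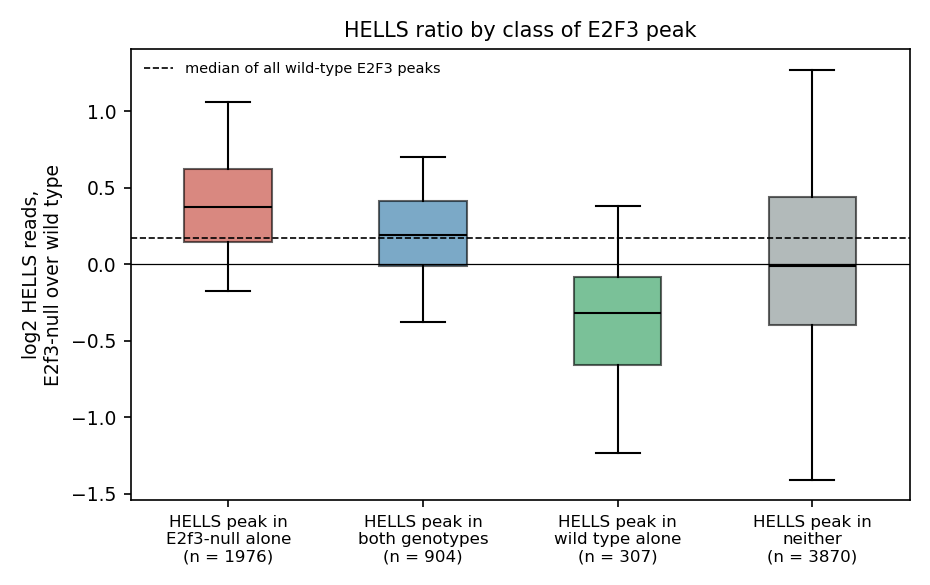
log2 ratio of HELLS reads, E2f3-null over wild type, for each class of wild-type E2F3 peak without a wild-type H3K27me3 peak. Boxes run between quartiles with the median as a line, whiskers run between the 5th and 95th percentile, and the dashed line is the median of all wild-type E2F3 peaks. The 1976 regions with HELLS listed in E2f3-null alone have a median of 0.37, the 307 with HELLS listed in wild type alone a median of -0.32, and the boxes of the 1976 regions and of the class with HELLS in both genotypes overlap.

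The size of the HELLS ratio depends on how the libraries are scaled. The scale of each library was its number of distinct reads that lay in none of the 27092 merged peak regions. Scaled instead so that the class with HELLS in both genotypes had a median ratio of 1, the 1976 regions had a median log2 ratio of 0.18, and 43 were called higher and 1 lower. Counted in 500 bp at the E2F3 summit, 156 regions were called higher. In 500 bp at the summit of the E2f3-null HELLS peak, a position taken from the E2f3-null library itself, 193 were. The matching shares of all wild-type E2F3 peaks are not given, so nothing is read from the change in these counts.

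HELLS reads differed between genotypes in the middle of the regions and hardly in the flanks. In the 100 bp around the E2F3 summit the 1976 regions together held 14313 HELLS reads in E2f3-null and 9715 in wild-type cells, a scaled ratio of 1.46 (95% interval 1.43 to 1.502). The same window gave 1.17 (1.13 to 1.21) with HELLS in both genotypes, 1.14 (1.11 to 1.17) with HELLS in neither, and 0.857 (0.799 to 0.920) with HELLS in wild type alone. From 500 to 1000 bp outside the peak edges the ratio at the 1976 regions was 0.977 (0.948 to 1.01), from 8439 E2f3-null and 8576 wild-type reads. From 1000 to 3000 bp outside it was 0.977 (0.960 to 0.994), slightly below 1. Over all wild-type E2F3 peaks these flank ratios were 0.987 (0.974 to 1.001) and 0.975 (0.967 to 0.982), so they are not particular to the regions. The regions were chosen on HELLS calls in both genotypes, so their central ratio is part of the selection.

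The HELLS summit in E2f3-null cells lay close to the wild-type E2F3 summit. The median distance was 83 bp, with quartiles of 30 and 234 bp, and 1070 of the 1976 regions (54.1%) had the 2 summits within 100 bp. Over all wild-type E2F3 peaks with an E2f3-null HELLS peak the median distance was 91 bp and 52.5% were within 100 bp. The closeness is thus not particular to the regions. In the class with HELLS in both genotypes the median distance was 123 bp and 409 of 904 (45.2%) were within 100 bp. The overlap that chose these peaks bounds the distances, so they are a description.

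**Figure D3:**
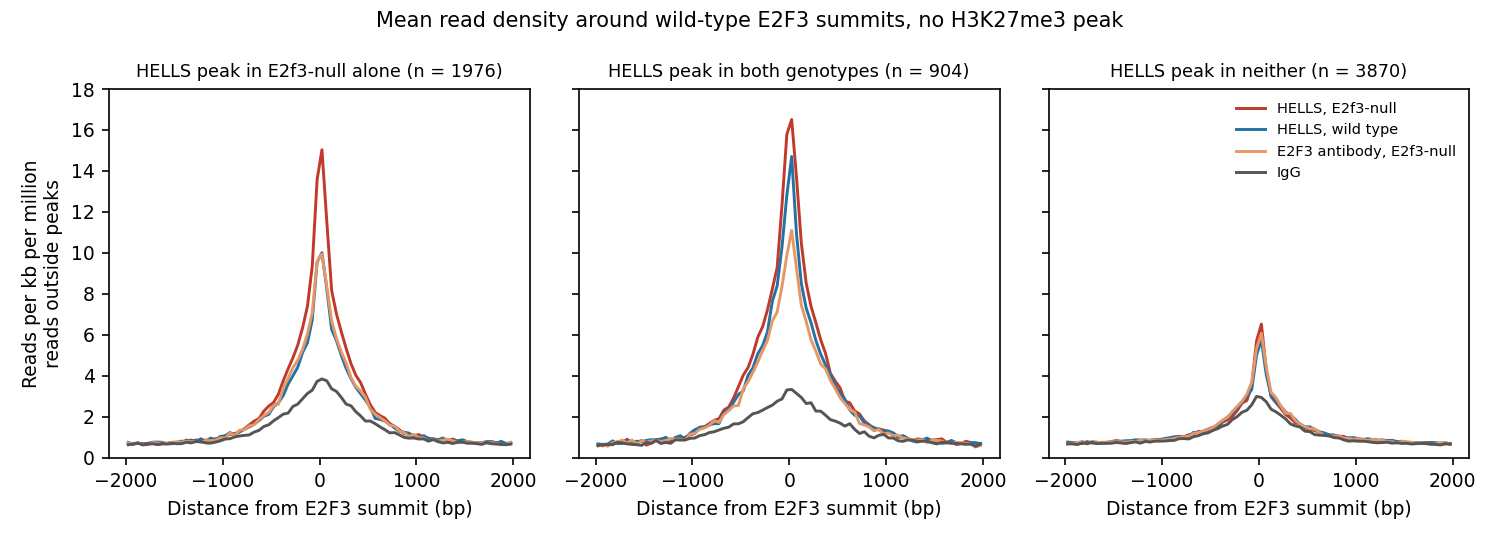
Mean reads per kb, with each library scaled to 1000000 reads outside peaks, in 50 bp bins within 2000 bp of the wild-type E2F3 summit, for 3 classes of E2F3 peak without a wild-type H3K27me3 peak. In the central 100 bp of the 1976 regions (left) HELLS reached 14.3 in E2f3-null and 9.78 in wild-type cells, the E2f3-null library of the E2F3 antibody 9.77 and IgG 3.79, and beyond 1500 bp all 4 lines lay between 0.680 and 0.734.

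In wild-type cells, where no HELLS peak was listed, the 1976 regions carried more HELLS reads than IgG reads after scaling, at about the level of all wild-type E2F3 peaks. Summed over the regions, HELLS over IgG was 2.43 (95% interval 2.40 to 2.46) in E2f3-null and 1.85 (1.83 to 1.88) in wild-type cells, against 2.17 and 1.86 over all wild-type E2F3 peaks. The log2 ratio had a median of 1.27 in E2f3-null and 0.90 in wild-type cells, against 0.99 and 0.83 over all wild-type E2F3 peaks. It was above 0 at 1969 regions in E2f3-null and at 1924 regions (97.4%) in wild-type cells. Over all wild-type E2F3 peaks it was above 0 at 87.5% in E2f3-null and at 86.6% in wild-type cells. By the 2-fold rule with the interval, E2f3-null HELLS was above IgG at 1446 regions (73.2%), against 40.5% of all wild-type E2F3 peaks, and wild-type HELLS at 692 (35.02%), against 29.5%. The rule that chose the regions removed those with a wild-type HELLS peak, and this bears on the count in wild type. Counted in 100 bp at the E2F3 summit, wild-type HELLS was above IgG at 322 regions (16.3%), against 13.54% of all wild-type E2F3 peaks.

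Region by region, HELLS was above IgG in both genotypes at 629 regions, in E2f3-null cells alone at 817, in wild-type cells alone at 63 and in neither at 467. Over all wild-type E2F3 peaks these 4 states made up 23.9%, 16.5%, 5.58% and 54.0%, against 31.8%, 41.3%, 3.19% and 23.6% of the 1976 regions, which were chosen on calls in both HELLS libraries. At those 467 regions the peak caller listed a HELLS peak in E2f3-null cells although reads over the whole E2F3 peak did not pass the 2-fold rule against the deposited IgG library. Of the 103 regions with HELLS called higher in E2f3-null cells, 7 had wild-type HELLS above IgG and 96 did not. The same wild-type HELLS reads enter both calls. Their median was 15 in the regions called higher and 25 in those not called higher. The split is therefore partly set by the call, and nothing is read from it.

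The other classes place these shares. Wild-type HELLS was above IgG at 824 of the 904 peaks with HELLS in both genotypes (91.2%), at 194 of the 307 with HELLS in wild type alone (63.2%) and at 232 of the 3870 with HELLS in neither (5.99%). The median log2 of wild-type HELLS over IgG was 0.90 at the 1976 regions, against 1.49 with HELLS in both, 1.26 with HELLS in wild type alone and 0.47 with HELLS in neither. The 1976 regions lay between the listed and the unlisted classes. The classes were defined by the HELLS calls, also those in wild type, so this order is part of the selection. Among the 1211 peaks of the 2 classes with a wild-type HELLS peak, the 10th percentile of this log2 ratio was 0.96, and 868 of the 1976 regions (43.9%) were at or above that value. At or above the lower quartile of those 1211 peaks, 1.17, there were 444 (22.5%). At or above their median, 1.43, there were 164 (8.30%). Of the 3870 peaks with HELLS in neither, 20.2% were at or above 0.96, 13.2% at or above 1.17 and 7.67% at or above 1.43. Over all wild-type E2F3 peaks this log2 ratio had a median of 0.83 and an upper quartile of 1.24. The matching shares of all wild-type E2F3 peaks are not given, so nothing particular to the regions is read from these counts.

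**Figure D4:**
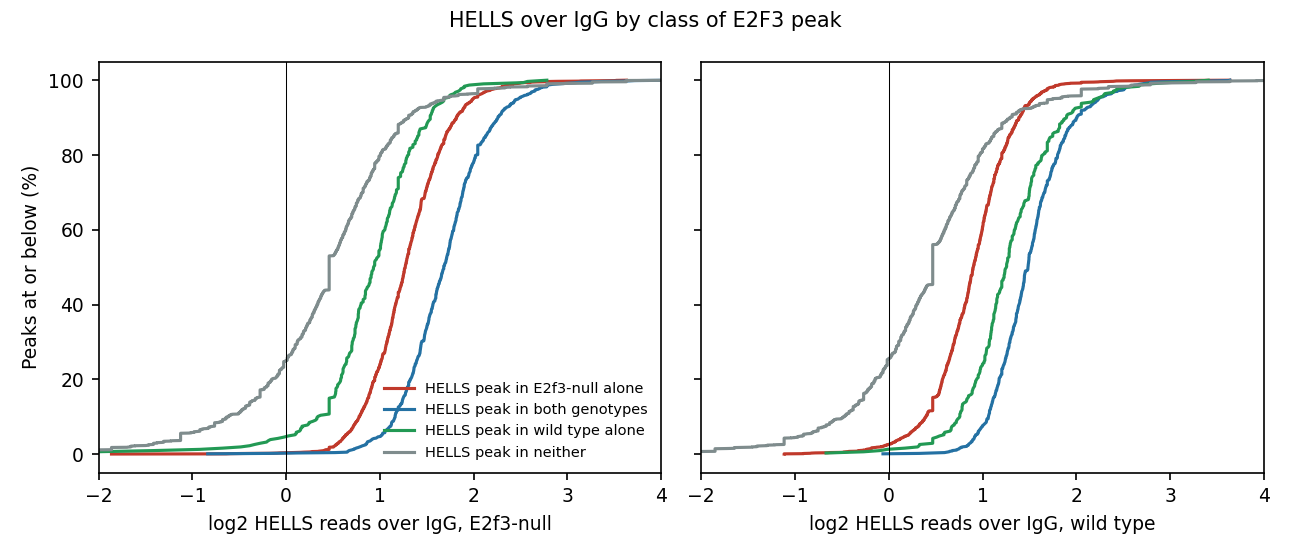
Cumulative share of E2F3 peaks at or below each log2 ratio of HELLS reads over IgG reads, in E2f3-null (left) and wild-type cells (right), for 4 classes of E2F3 peak. With HELLS listed in E2f3-null alone (red) the median is 1.27 in E2f3-null and 0.90 in wild-type cells, where the curve lies between that of peaks with HELLS in neither (0.47) and that of peaks with HELLS in wild type alone (1.26). The HELLS calls defined the classes, so this order is part of the selection.

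The authors' peak score, which is 10 times the minus log10 of the caller's p, starts at 50 for a listed peak. The E2f3-null HELLS peaks at the 1976 regions had scores from 50.2 to 687, with a median of 90.5, against a median of 126 where HELLS was listed in both genotypes. A score of 100 or more was reached at 854 of the 1976 regions (43.2%) and at 585 of 904 (64.7%) with HELLS in both. The E2f3-null HELLS peaks of the 1976 regions had a median fold enrichment of 9.21 and a median false discovery rate of 0.65%, both the authors' own values.

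Along this score the HELLS difference and the share of regions with wild-type HELLS above IgG went up together. In the group with the lowest scores, 494 regions between 50.2 and 66.6, the summed HELLS ratio was 1.20 (95% interval 1.17 to 1.23) and wild-type HELLS was above IgG at 19.8%. In the next group, 494 regions up to 90.5, the ratio was 1.25 (1.22 to 1.28) with 24.3% above IgG. In the third, 496 regions up to 134, they were 1.31 (1.29 to 1.34) and 38.3%. In the 492 regions with scores of 134 to 687 they were 1.42 (1.39 to 1.44) and 57.7%. The median log2 of wild-type HELLS over IgG was 0.76 in the lowest and 1.06 in the highest group. Median wild-type HELLS reads were 21 and 32 there, and more reads make a call easier at the same ratio. HELLS was called higher in E2f3-null cells at 22, 16, 28 and 37 regions of these 4 groups in order of score. The score was computed from the E2f3-null HELLS library, so its relation to the ratio is part of the selection. The score was also computed against an IgG control, so it can share IgG reads with wild-type HELLS over IgG, and regions with a wild-type HELLS peak had been removed.

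**Figure D5:**
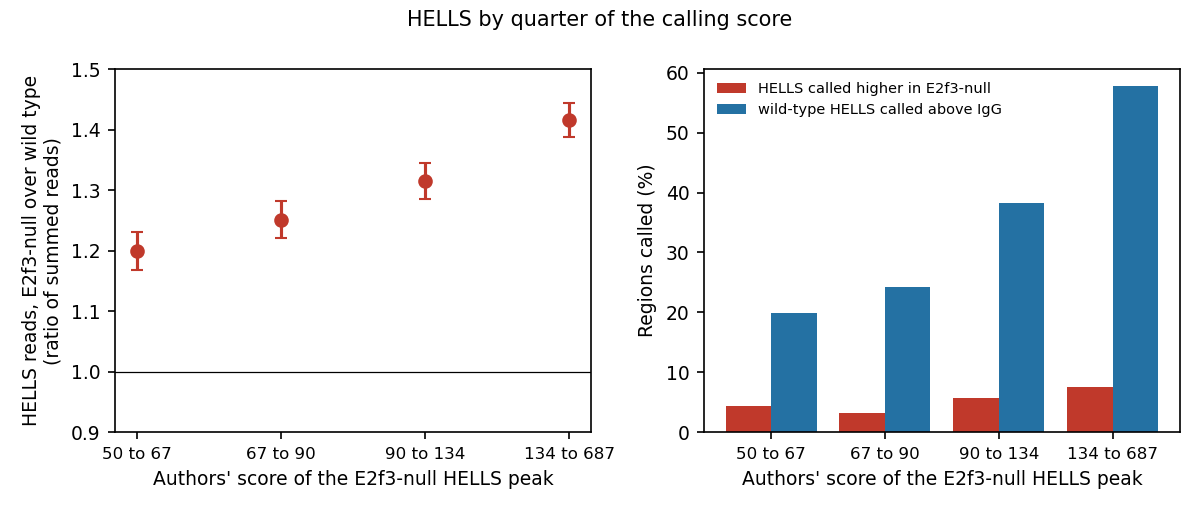
The 1976 regions in 4 groups of the authors' score for the E2f3-null HELLS peak. Left, ratio of summed HELLS reads, E2f3-null over wild type, with 95% intervals for counting error, from 1.20 at the lowest to 1.42 at the highest scores. Right, percent of regions with HELLS called higher in E2f3-null cells (red) and with wild-type HELLS called above IgG (blue), which ran from 19.8% to 57.7%.

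The HELLS lists of the genotypes were called against controls of different size. Per the file headers, the control of the HELLS peaks held 3791438 tags for E2f3-null and 3444066 for wild-type cells, and the caller's fragment size was 134 bp for E2f3-null and 115 bp for wild-type HELLS. The HELLS libraries themselves were close in depth, with 5377465 distinct reads in E2f3-null and 5318920 in wild-type cells. The part of the controls and of the fragment size in which regions were listed was not tested.

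Single regions show the range, with coordinates on mm9 and no gene assigned. At chr17:69731820-69733500, which had the highest HELLS score, HELLS gave 126 reads in E2f3-null and 66 in wild-type cells, the E2F3 antibody 49 and 245, H3K27me3 3 and 28, and IgG 42. The HELLS ratio there was 1.90 (95% interval 1.397 to 2.59), under the 2-fold threshold, and wild-type HELLS over IgG was 2.17 (1.46 to 3.28), so both genotypes were high in HELLS.

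At chr14:103497865-103499073 HELLS gave 81 reads in E2f3-null and 44 in wild-type cells, the E2F3 antibody 46 and 111, H3K27me3 3 and 25, and IgG 25. The HELLS ratio was 1.83 (1.25 to 2.70) and wild-type HELLS over IgG 2.44 (1.46 to 4.15). At chr8:113579877-113581187 HELLS gave 76 reads in E2f3-null and 65 in wild-type cells, with 34 IgG reads, a ratio of 1.16 (0.823 to 1.64). The score there was 452, so a high score also occurred where the interval of the HELLS ratio included 1. The neighbouring regions chr1:180266414-180267413 and chr1:180267490-180268196 shared 1 HELLS peak of score 571, with 63 and 41 HELLS reads in E2f3-null cells, against 39 and 28 in wild-type cells.

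The strongest E2F3 peak among the regions, chr7:38891628-38893143, held 28 reads of the E2F3 antibody in E2f3-null and 350 in wild-type cells. HELLS gave 44 reads in E2f3-null and 40 in wild-type cells, with 39 IgG reads, a ratio of 1.09 (0.696 to 1.72), and H3K27me3 gave 8 and 25. The E2F3 antibody thus fell at this region while the interval of the HELLS ratio included 1. At chr8:13338179-13339497, the fifth strongest, the E2F3 antibody gave 38 reads in E2f3-null and 250 in wild-type cells, and HELLS 71 and 35, with 41 IgG reads. The HELLS ratio was 2.01 (1.33 to 3.11), which was called higher, and wild-type HELLS over IgG was 1.18 (0.730 to 1.90).

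The largest HELLS ratios came from regions with few reads. At chr10:79266468-79266709 HELLS gave 12 reads in E2f3-null and 2 in wild-type cells, with 3 IgG reads, a ratio of 5.96 (1.33 to 54.8). At chr9:119920145-119920648 it gave 25 and 5, with 9 IgG reads, a ratio of 4.97 (1.87 to 16.6), and the E2F3 antibody gave 13 reads in E2f3-null and 34 in wild-type cells. At chr17:11033026-11033735 it gave 23 and 5, with 13 IgG reads, a ratio of 4.57 (1.70 to 15.4). Wild-type HELLS was at or below scaled IgG at these 3 regions, and the intervals span an order of magnitude or close to it. The 103 regions called higher had medians of 34 HELLS reads in E2f3-null and 15 in wild-type cells and 15 IgG reads, and a median length of 693 bp.

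The region called lower, chr12:66018671-66019368, held 14 HELLS reads in E2f3-null and 33 in wild-type cells, with 14 IgG reads, a ratio of 0.421 (0.208 to 0.809). Wild-type HELLS over IgG was 3.26 (1.70 to 6.60) there, and no wild-type HELLS peak was listed. At chr15:97661955-97662370 HELLS gave 13 reads in E2f3-null and 17 in wild-type cells, with 4 IgG reads. Wild-type HELLS over IgG was 5.88 (1.92 to 24.0), again without a listed peak. At chr14:58416842-58417056 HELLS gave 1 and 3 reads with no IgG read, so no ratio can be read there.

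At the edge of the E2f3-null score cutoff, the 5 regions with the lowest E2f3-null HELLS scores, 50.2 to 50.4, held 43, 30, 19, 42 and 40 HELLS reads in E2f3-null cells, against 38, 26, 20, 38 and 30 in wild-type cells. At the edge of the wild-type score cutoff, the 5 peaks with HELLS in both genotypes and the lowest wild-type HELLS scores, 50.1 to 50.3, which were therefore not among the regions, held 32, 29, 40, 30 and 39 in E2f3-null cells, against 39, 30, 28, 36 and 32 in wild-type cells. These are reads per peak, over peaks of different length and at different cutoffs, and are given side by side.

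The E2F3 antibody lost reads at these regions in E2f3-null cells. The median region held 21 reads in E2f3-null and 61 in wild-type cells, and the summed reads gave a ratio of 0.339 (95% interval 0.335 to 0.343). The antibody was called lower at 1566 regions (79.3%), against 73.3% of all wild-type E2F3 peaks, and higher at none. Over all these peaks the median reads were 14 in E2f3-null and 41 in wild-type cells, and fewer reads make a call harder at the same ratio. The wild-type E2F3 peak was used to choose the regions, so the fall is a description of the targeted protein. The HELLS ratio was 1.32 (1.30 to 1.33) where the E2F3 antibody was called lower and 1.29 (1.25 to 1.32) at the other 410 regions. Ordered by the authors' wild-type E2F3 score, the 494 regions with the lowest scores, 50.3 to 102, had a HELLS ratio of 1.26 (1.23 to 1.29), and the 494 with the highest, 314 to 2161, one of 1.34 (1.31 to 1.37). The E2F3 antibody was called lower at 247 of the 494 regions with the lowest scores and at 492 of the 494 with the highest. In the groups between them the counts were 374 of 495 and 453 of 493. The score comes from the wild-type E2F3 reads, the lower term of the E2F3 ratio, so this rise is part of the ordering. The HELLS ratios of the 4 score groups lay between 1.26 and 1.34, and nothing is read from setting the 2 side by side. Both changes were called together, E2F3 lower and HELLS higher, at 82 regions (4.15%), against 1.70% of all wild-type E2F3 peaks. These were 79.6% of the 103 regions with HELLS higher, and E2F3 was lower at 79.3% of all 1976 regions, so nothing is read from the joint count. Across the 1976 regions the log2 ratios of HELLS and of the E2F3 antibody had a Spearman correlation of -0.058, given as a description, since all regions come from the same 4 libraries.

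In E2f3-null cells the E2F3 antibody still gave reads above IgG at part of the regions, and this library was not used to choose them. The E2F3 antibody was above IgG at 785 regions (39.7%), against 27.9% of all wild-type E2F3 peaks. Over all these peaks the median was 14 reads of this library, fewer than at the regions, and more reads make a call easier at the same ratio. An E2F3 peak was still listed in E2f3-null cells at 1059 regions (53.6%), against 28.3% of all wild-type E2F3 peaks, 67.4% of those with HELLS in both genotypes, 18.2% with HELLS in wild type alone and 6.95% with HELLS in neither. In the central 100 bp the E2f3-null library of this antibody had a mean density of 9.77, close to the 9.78 of wild-type HELLS, both in reads per kb scaled to 1000000 reads outside peaks. HELLS over IgG and this antibody over IgG, both in E2f3-null cells, had a Spearman correlation of 0.50 across the 1976 regions, given as a description, since they share the IgG counts and the peak length. What the antibody bound there was not tested.

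At the 1059 regions with an E2F3-antibody peak in E2f3-null cells, the median HELLS reads were 35 in E2f3-null and 28 in wild-type cells, and wild-type HELLS was above IgG at 45.9%. The HELLS ratio there was 1.29 (1.27 to 1.31), and 42 regions (3.97%) were called higher. At the 917 regions without such a peak the medians were 29 and 22 HELLS reads and wild-type HELLS was above IgG at 22.5%. The ratio was 1.34 (1.31 to 1.36), and 61 regions (6.65%) were called higher. The regions were chosen on HELLS calls, so a ratio above 1 in either subset is part of the selection.

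H3K27me3 reads were few at these regions, which were chosen to have no H3K27me3 peak in wild type. The median region held 2 reads in E2f3-null and 14 in wild-type cells, and 307 regions had none in E2f3-null, against 3 in wild-type cells. Of all 8889 wild-type E2F3 peaks, 1935 had none in E2f3-null and 198 had none in wild-type cells. The summed ratio was 0.259 (95% interval 0.251 to 0.266), and the mark was called lower at 1120 regions (56.7%), against 48.7% of all wild-type E2F3 peaks. Counted in 500 bp at the E2F3 summit it was called lower at 606 regions (30.7%), against 33.2% of all wild-type E2F3 peaks, so the order of these shares turned with the window. Wild-type H3K27me3 was above IgG at 186 regions (9.41%), against 24.8% of all peaks. An H3K27me3 peak was listed in E2f3-null cells at 5 of the 1976 regions, against 9.19% of all peaks.

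The E2f3-null H3K27me3 library lay below IgG at 940 regions (47.6%), against 28.9% of all wild-type E2F3 peaks. Its summed ratio to IgG was 0.309 in the regions, 0.570 from 500 to 1000 bp outside and 0.707 from 1000 to 3000 bp outside, while wild-type H3K27me3 over IgG was 1.19, 0.877 and 0.920 over the same stretches. That library held the fewest distinct reads, 3799779, against 5640555 for wild-type H3K27me3. The part of the library in the H3K27me3 ratio was not tested. Across the 1976 regions the log2 ratios of HELLS and H3K27me3 had a Spearman correlation of 0.020, a description only.

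IgG reads were denser at these regions than at other E2F3 peaks. The median was 21.9 IgG reads per kb, against 18.96 over all wild-type E2F3 peaks, 19.5 with HELLS in both genotypes, 17.96 with HELLS in wild type alone and 17.2 with HELLS in neither. In the 494 regions with the fewest IgG reads per kb the HELLS ratio was 1.35 (95% interval 1.31 to 1.39) and wild-type HELLS was above IgG at 47.2%. In the 494 with the most IgG reads per kb the ratio was 1.29 (1.26 to 1.32) and the share 21.9%. The HELLS ratio between genotypes does not use IgG, whereas the share above IgG does.

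The regions were spread over all autosomes, where they made up 16.7% to 27.05% of the wild-type E2F3 peaks, lowest on chromosome 7 and highest on chromosome 16. The median log2 HELLS ratio on the autosomes ran from 0.30 on chromosome 6 to 0.46 on chromosome 13. On the X chromosome 8 of 176 wild-type E2F3 peaks (4.55%) belonged to them. A wild-type H3K27me3 peak, which the rule excludes, lay at 79 of the 176 (44.9%), against 20.6% of all wild-type E2F3 peaks. The part of this exclusion in the low share on the X was not tested. None lay on unplaced sequence.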

How the data were processed

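Aligned reads on mm9 were deposited as 1 line per read, per the submitters' processing notes. The aligner is not given in the sources used here. The authors called peaks per library with MACS 1.4.0beta at a p cutoff of 1e-05, against IgG controls of 3791438 tags (E2f3-null) and 3444066 tags (wild type), per the file headers. The authors' tables give per peak a tag count, a score (10 times the minus log10 of the caller's p), a fold enrichment as a ratio and a false discovery rate in percent, per the file headers. The deposited summit files hold the height of the unscaled tag signal and were not used for values.

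Here repeated reads at a position and strand were dropped, 5' ends were shifted 60 bp downstream, and reads were counted in each whole wild-type E2F3 peak. Libraries were scaled by distinct reads outside all peaks. Ratios carry exact conditional binomial 95% intervals, and log2 ratios have 0.5 added to both counts. The deposited IgG reads stood in for the 2 separate controls in the headers. Shares were compared over all 8889 peaks. The code was tested on simulated counts. Python 3.11.15, NumPy 2.4.6, pandas 2.3.3, SciPy 1.17.1 and matplotlib 3.10.9 were used. Named regions were the 5 with the highest and the 5 with the lowest E2f3-null HELLS score, the 5 with the highest E2F3 score, the 5 largest and 5 smallest HELLS ratios, the 5 with the highest wild-type HELLS over IgG and 5 peaks outside the regions from each of 2 classes, of which part are described. The regions, lists and rules were chosen with earlier results of these data known. Gene names and sequences were not used, since no mm9 annotation was at hand.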

Additional observations from a re-analysis of the deposited data

How the results depend on the processing

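Under the 15 alternatives the median log2 HELLS ratio, where it was recomputed, lay between 0.18 and 0.50. The other values are counts, for which no change of direction was defined. Of 91 recomputed values 67 stayed within the set range and 24 moved. The set range was a factor of 1.5 around the main count, or 0.353 to 0.391 for the median. With scaling to the class with HELLS in both genotypes, the median log2 HELLS ratio was 0.18 and 43 regions were called higher. In 500 bp at the E2F3 summit these were 0.42 and 156, with 3 called lower and H3K27me3 called lower at 606, and in 500 bp at the E2f3-null HELLS summit 0.47 and 193. A 1.5-fold threshold gave 271 regions higher and the interval alone 278. With E2f3-null HELLS peaks of score 100 or more there were 854 regions, a median of 0.47, 60 higher, 0 lower, wild-type HELLS above IgG at 431, E2f3-null HELLS above IgG at 786, E2F3 lower at 685 and H3K27me3 lower at 508. These counts are smaller because fewer regions entered. Chosen after seeing the data, leaving out regions with an E2F3-antibody peak in E2f3-null cells gave 917 regions, a median of 0.41, 61 higher and wild-type HELLS above IgG at 206. Also chosen after seeing the data, 100 bp at the E2F3 summit gave a median of 0.50 and wild-type HELLS above IgG at 322. Why values moved under the other settings was not tested. Shares of all wild-type E2F3 peaks are not set beside the counts in this section, so nothing particular to the regions is read from them. No paired analysis was possible because each group had 1 library, which also left no replicate to leave out. At the reads held by a median region, differences under 1.71-fold were not detectable.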
